A study of Mus musculus with 2 samples.

Results

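Nuclear receptors are transcription factors that are switched on or off by hormones, vitamins, fatty acids, bile acids, sterols and foreign compounds. In the liver many of them pair with a retinoid X receptor (RXR) and control bile acid, lipid, glucose and drug metabolism. Coactivators and corepressors are the proteins that a receptor recruits to open or close chromatin at its target genes. The 41 genes described here, 34 receptors and 7 coregulators, were taken by gene symbol from a list of named family members. All 41 were among the 21878 gene symbols of the deposited counts.

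The data are polyA RNA sequencing of mouse liver in 2 libraries, 1 per group. The TSA library came from the liver of FVB/N mice that were given c-Myc by hydrodynamic injection, in which fluid pushed quickly into the tail vein takes DNA into hepatocytes, and whose treatment is labelled TSA. The untreated library came from FVB/N liver after the same c-Myc injection, with no treatment. Both groups therefore carry c-Myc, and no liver without it was analysed here. The study's title concerns the slowing of c-Myc-driven liver cancer by TSA. The sources used here do not give the promoter of the c-Myc construct, the dose and duration of TSA, the age and sex of the mice, whether tumour or whole liver was taken, or whether animals were pooled. With 1 library per group no difference has a replicate check and no test across conditions is possible, so intervals in parentheses are 95% intervals of counting error alone.

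The libraries held 17088227 counts (TSA) and 17281523 counts (untreated). Ratios are TSA over untreated after TMM scaling, a method built on the assumption that the bulk of genes is unaltered. Total count scaling divides every ratio by 1.80. Genes with a sum of 20 or more counts were tested. They are called where TSA and untreated differ by 2-fold or more, up or down, and the interval leaves out 1. With TMM 26.0% of the genes tested were called higher, 27.4% lower and 46.6% neither. Whether the assumption behind TMM holds here was not tested. FPKM are the authors' deposited values per gene length and per total count, and levels of different genes are compared on that scale.

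The tissue label was checked against cell type markers. All 8 hepatocyte markers were called higher in the TSA library, where their summed level was 60888 FPKM, against 6908 FPKM in the untreated library. *Alb*, for serum albumin, was 57.1-fold (56.6 to 57.6) higher. All 7 markers of dividing cells were called lower, with a sum of 3.64 FPKM with TSA and 498 FPKM without, and *Top2a*, for a topoisomerase of replicating cells, was 99.2-fold (76.5 to 131) lower. Other liver cells differed as well. Of 10 sinusoidal endothelial markers 9 were higher (sums of 209 FPKM with TSA and 32.8 FPKM untreated). Of 10 stellate cell and fibroblast markers 7 were higher and 1 was lower (184 and 89.5 FPKM), and of 10 Kupffer cell and macrophage markers 5 were higher and 1 lower (293 and 432 FPKM). Of 7 cholangiocyte markers tested 4 were higher and 2 lower (29.0 and 49.7 FPKM), all 5 erythroid markers tested were higher (421 and 150 FPKM), and so were 3 of 4 lymphocyte markers (4.39 and 1.76 FPKM) and all 3 neutrophil markers tested (10.1 and 3.76 FPKM). *Cftr* and *Hba-a2* were at 0 in the TSA library and *Ly6g* in both, and no other marker listed in the files was at 0. These calls use TMM, while the sums are on the total count scale. With total counts, 3 Kupffer cell and macrophage markers were higher and 3 lower, 2 and 3 of the cholangiocyte markers, 6 and 3 of the stellate markers, 7 and 0 of the endothelial markers and 2 and 0 of the neutrophil markers. The other marker lists kept their counts. The part of these differences in the receptor values below was not tested. In bulk tissue, fewer cells of a type and less RNA per cell cannot be told apart.

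Of the 6 receptors that respond to bile acids, oxysterols and foreign compounds, 5 were called higher (83.3%, against 26.0% of all genes tested). The DNA just before the start sites of 5 of the 6 is shown here because they include 2 of the 4 largest ratios among all members. The sequences are the 250 bases before the annotated start, 5′ to 3′ on the strand of the gene, from RefSeq on build GRCm38.p6. Capitals mark CACGTG, the E-box that MYC and MAX can bind together with other factors, or AGGTCA on either strand, the hexamer that many nuclear receptors recognise.
Nr1i3 (chr1:171213720-171213969, plus strand): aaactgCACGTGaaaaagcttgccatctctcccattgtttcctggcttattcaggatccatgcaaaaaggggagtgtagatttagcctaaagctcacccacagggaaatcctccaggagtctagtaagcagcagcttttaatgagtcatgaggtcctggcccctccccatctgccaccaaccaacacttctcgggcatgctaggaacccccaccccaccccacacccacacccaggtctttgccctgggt
Nr0b2 (chr4:133553126-133553375, plus strand): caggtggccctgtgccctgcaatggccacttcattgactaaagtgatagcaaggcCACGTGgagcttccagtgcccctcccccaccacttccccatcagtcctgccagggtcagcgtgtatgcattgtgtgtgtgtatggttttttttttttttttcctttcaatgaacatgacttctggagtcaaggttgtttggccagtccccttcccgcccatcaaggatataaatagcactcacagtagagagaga
Nr1h4 (chr10:89506659-89506908, minus strand): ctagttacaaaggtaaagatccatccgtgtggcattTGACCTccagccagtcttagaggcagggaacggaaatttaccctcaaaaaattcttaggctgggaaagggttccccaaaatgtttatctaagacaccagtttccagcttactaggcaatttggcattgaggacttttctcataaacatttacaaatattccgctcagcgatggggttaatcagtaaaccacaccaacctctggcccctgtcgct
Nr1i2 (chr16:38294825-38295074, minus strand): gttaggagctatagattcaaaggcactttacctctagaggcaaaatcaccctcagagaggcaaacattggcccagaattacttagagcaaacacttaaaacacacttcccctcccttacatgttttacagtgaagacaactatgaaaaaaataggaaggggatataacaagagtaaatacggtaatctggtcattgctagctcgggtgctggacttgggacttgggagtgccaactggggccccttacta
Nr1h2 (chr7:44553966-44554215, minus strand): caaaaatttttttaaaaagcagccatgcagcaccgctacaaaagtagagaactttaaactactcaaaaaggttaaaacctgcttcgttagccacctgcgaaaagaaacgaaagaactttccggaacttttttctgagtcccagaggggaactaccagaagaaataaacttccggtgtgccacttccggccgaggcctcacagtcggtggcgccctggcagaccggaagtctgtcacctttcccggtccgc

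The E-box of *Nr1i3* starts 244 bases and that of *Nr0b2* 195 bases before the start, and the hexamer of *Nr1h4*, read on the opposite strand, 214 bases before it. The windows of *Nr1i2* and *Nr1h2* held neither motif. CACGTG was found in 4 of the 55 windows of 35 matched members (7.27%), those of *Nr1i3*, *Nr0b2*, *Rara* and *Thrb*, and in 6.02% of the 32851 windows of all genes. Member windows on chromosome 18 were left out, a filter that was not applied to the windows of all genes. AGGTCA, searched on both strands, was found in 10 of the 55 windows (18.2%) and in 14.0% of all windows. CpG dinucleotides numbered 2 before *Nr1i3*, 2 before *Nr1i2*, 3 before *Nr0b2*, 5 before *Nr1h4*, 8 and 7 in the windows of *Nr1h3*, and 13 before *Nr1h2*, the member of this group that was not called. The median over the windows of all genes was 6 CpG. *Nr1h3* and *Nr1h2* lay above it, and the other receptors of this group shown here below it. Averaged over the windows of each gene, the median was 15.1 CpG in the 20 matched members called higher and 18 in the 13 called neither. The ranges overlapped (2 to 34 and 1 to 42). The 6 CpG of all genes is a median over single windows, so these gene averages are not directly comparable with it. These matches describe letters and do not show binding.

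**Figure D1:**
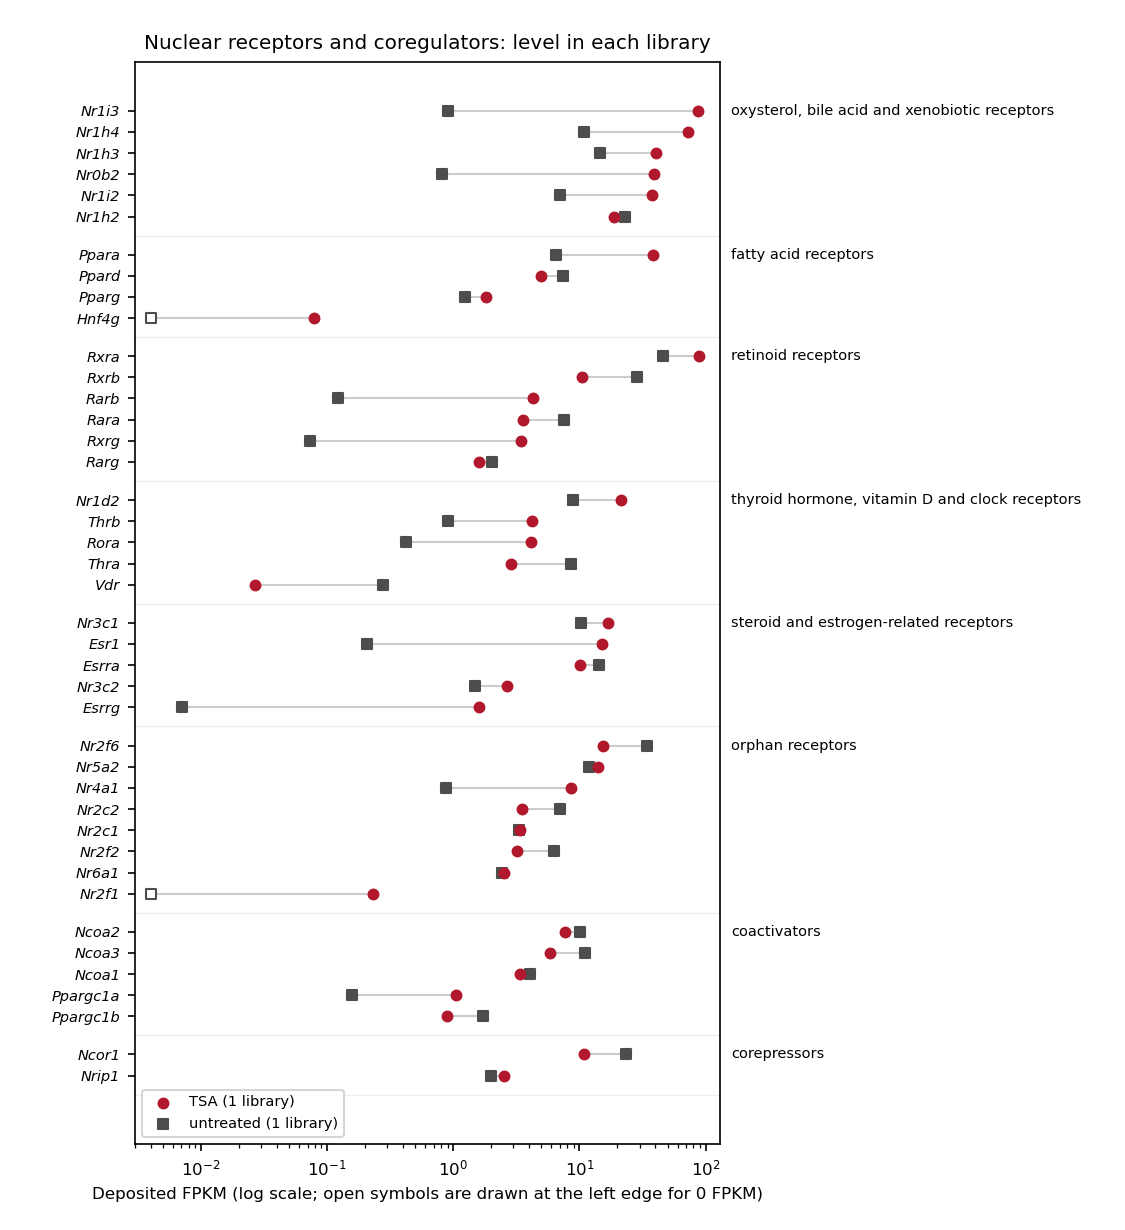
Deposited FPKM of the 41 members (log axis) in the TSA library (circles) and the untreated library (squares), 1 library each, grouped by role. The widest gaps with TSA on the right belong to *Esrrg*, *Nr1i3*, *Esr1*, *Nr0b2*, *Rxrg* and *Rarb*, apart from *Hnf4g* and *Nr2f1*, drawn at the edge for 0 FPKM untreated. The widest gap with TSA on the left belongs to *Vdr*. *Rxrb*, *Thra*, *Nr2f6* and *Ncor1* are among the other members whose TSA symbol lies to the left of the untreated symbol.

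Of the 41 members 39 passed the filter on low counts. Of these 21 were called higher in the TSA library and 1 lower, and 17 were called neither. The members called higher were 53.8% and those called lower 2.56% of the members tested, against a background of 26.0% higher, 27.4% lower and 46.6% neither among all 13027 genes tested. The members were chosen with earlier results of these data known, so these shares are descriptive. The filter favours genes that differ: 4 members (*Nr0b2*, *Rxrg*, *Rarb* and *Esrrg*) passed only through the TSA library and 1 (*Vdr*) only through the untreated library. The median log2 ratio was 1.22 over the members tested and -0.11 over all genes tested, a gap of 1.33 that a common scaling factor does not change. By 10-fold or more, 11 members were higher (28.2%, against 7.81% of all genes tested). With total counts 15 members were called higher and 6 lower, beside 16.0% and 48.7% of all genes. The 6 members called higher with TMM alone were *Rxra*, *Nr3c1*, *Nr3c2*, *Pparg*, *Nr5a2* and *Nrip1*, and the 5 called lower with total counts alone were *Rxrb*, *Rara*, *Thra*, *Nr2f6* and *Ncor1*. *Hnf4g*, a relative of the hepatocyte factor HNF4 alpha, and *Nr2f1*, for COUP-TF1, were too scarce to test. *Hnf4g* had 6 counts with TSA and 0 untreated, and *Nr2f1* 16 and 0, where a count of 0 allows up to 3.

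**Figure D2:**
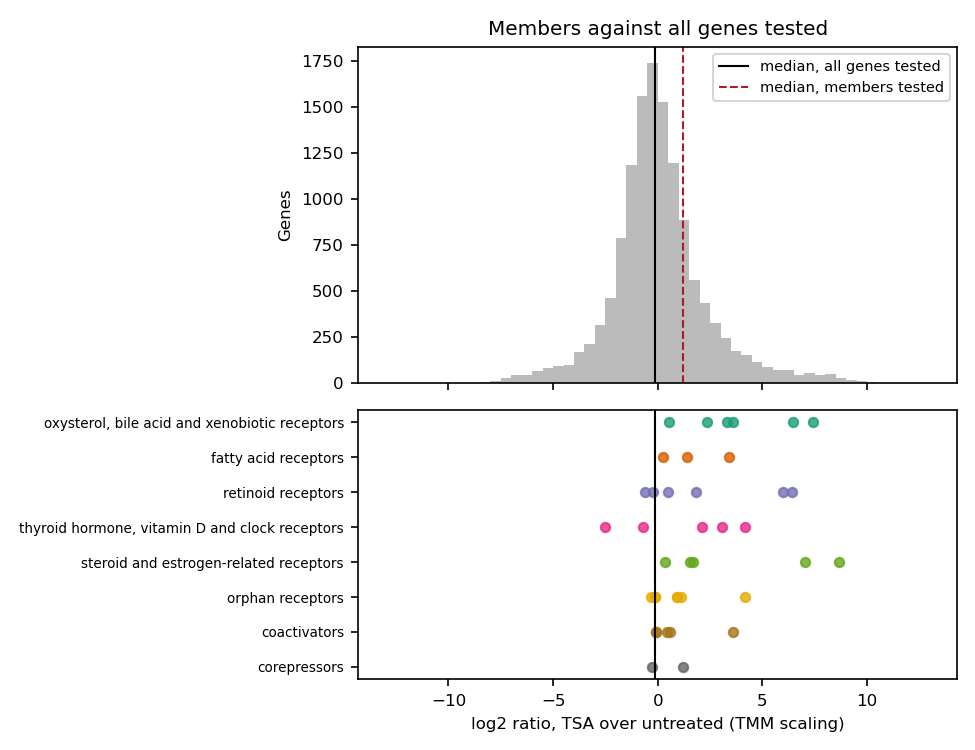
Upper panel, number of genes by log2 ratio of TSA over untreated (TMM scaling) for the 13027 genes tested, with the medians of all genes (-0.11, solid) and of the 39 members tested (1.22, dashed). Lower panel, the 39 members by role on the same axis: *Vdr* lies farthest left and *Esrrg* farthest right.

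The order of the members by level also differed between the libraries. In the TSA library the 5 highest FPKM belonged to *Rxra* (89.2), *Nr1i3* (87.6), *Nr1h4* (72.8), *Nr1h3* (40.6) and *Nr0b2* (39.1). In the untreated library they belonged to *Rxra* (45.7), *Nr2f6* (34.4), *Rxrb* (28.8), *Ncor1* (23.3) and *Nr1h2* (22.9). *Rxra*, for the RXR subtype that predominates in hepatocytes, was thus the most abundant member in both and the sole gene in both sets. *Nr1i3* stood at rank 2 of 41 with TSA and at rank 29 without. Members above 10 FPKM numbered 16 with TSA and 12 without, and members below 1 FPKM 4 and 13.

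**Figure D3:**
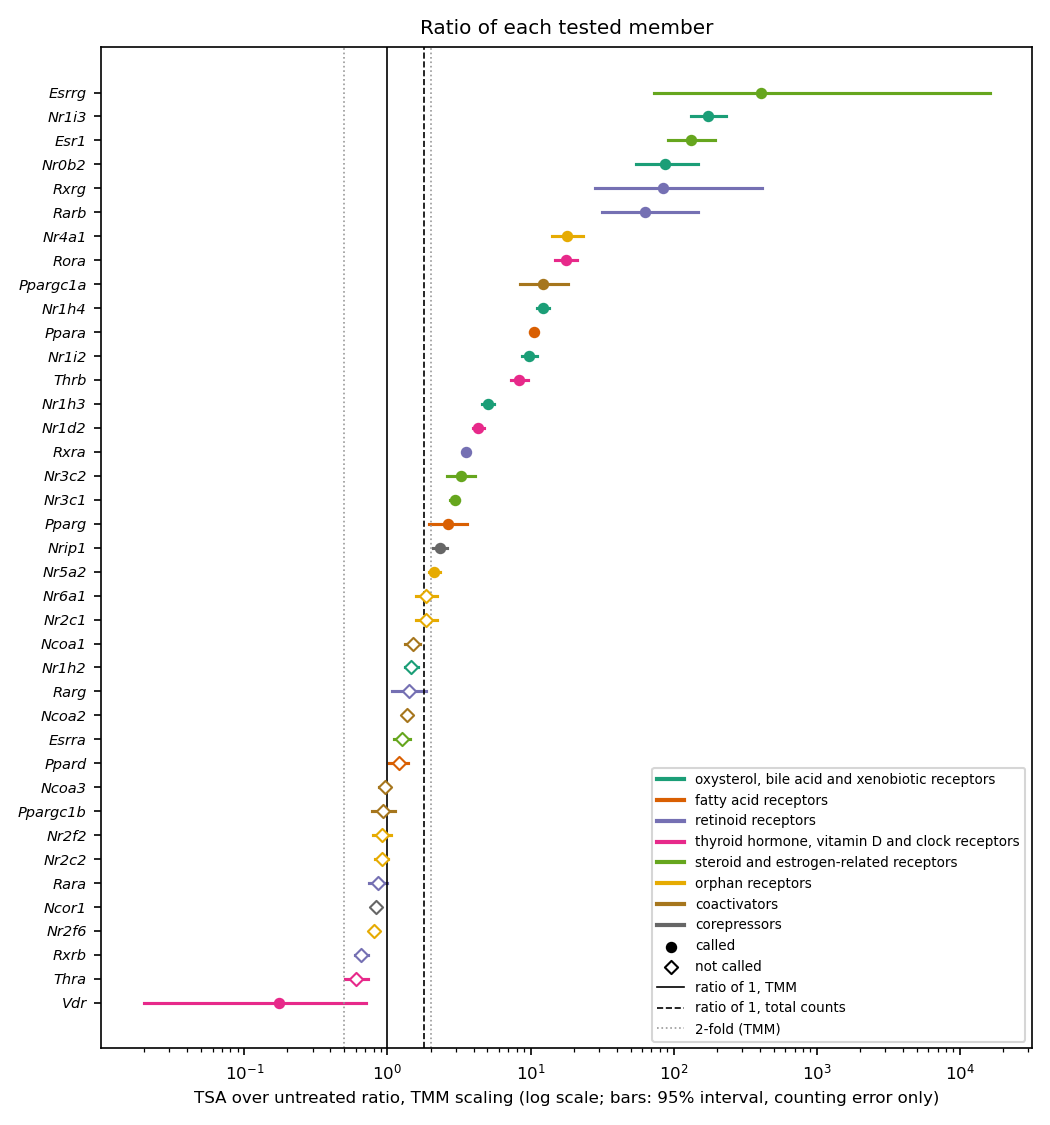
Ratio of TSA over untreated for the 39 members tested (log axis, TMM scaling) with 95% intervals of counting error, coloured by role. Filled circles are called and open diamonds are not, and the dashed line marks where a ratio of 1 would lie with total counts (1.80), and *Vdr* is the sole filled circle left of 1.

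Among the receptors for bile acids, oxysterols and foreign compounds 5 of 6 were called higher, with either scaling. That is 83.3%, against 26.0% (TMM) and 16.0% (total counts) of all genes tested. *Nr1i3*, for the constitutive androstane receptor CAR, which switches on drug-metabolising enzymes, had 5017 counts (87.6 FPKM) with TSA and 53 counts (0.915 FPKM) untreated. It was 173-fold (132 to 231) higher, a ratio above that of 98.6% of the genes tested, and 95.7-fold higher with total counts. In GENCODE M21, 74.9% of its exon bases overlap *Tomm40l* on the opposite strand, and the sources used here do not say whether counting used strand. *Tomm40l* had 144 counts with TSA and 511 untreated. Whether its reads are part of either *Nr1i3* count was not tested. *Nr0b2*, for the small heterodimer partner SHP, a receptor without a DNA-binding domain that represses bile acid synthesis, had 857 counts (39.1 FPKM) with TSA and 18 counts (0.812 FPKM) untreated, and was 86.9-fold (54.6 to 147) higher. *Nr1h4*, for the bile acid receptor FXR, which induces *Nr0b2*, had 2964 counts (72.8 FPKM) and 444 counts (10.8 FPKM) in the TSA and untreated libraries. It was 12.2-fold (11.0 to 13.5) higher. *Nr1i2*, for the xenobiotic receptor PXR, had 1856 and 345 counts in the same order and was 9.82-fold (8.75 to 11.0) higher.

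The oxysterol receptors LXR alpha and LXR beta, which drive cholesterol removal and lipid synthesis, did not move alike. *Nr1h3*, for LXR alpha, had 1497 counts (40.6 FPKM) with TSA and 543 counts (14.6 FPKM) untreated and was 5.03-fold (4.56 to 5.56) higher. *Nr1h2*, for the widely expressed LXR beta, had 677 counts (18.7 FPKM) with TSA and 842 counts (22.9 FPKM) untreated and was not called, at a ratio of 1.47 (1.32 to 1.63) with TMM and 0.813 with total counts. LXR alpha therefore made up 68.5% of the summed LXR level with TSA and 38.8% without. The ratio of *Nr1h3* to *Nr1h2* was 3.43 times as high with TSA (2.97 to 3.96), a value that no scaling of the libraries can move.

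The fatty acid receptors followed the same pattern of 1 dominant subtype. *Ppara*, for PPAR alpha, which turns on fatty acid oxidation in fasting liver, had 6954 counts (38.2 FPKM) with TSA and 1210 counts (6.57 FPKM) untreated, and was 10.5-fold (9.87 to 11.2) higher. *Ppard*, for the widely expressed PPAR delta, had 273 counts (4.96 FPKM) with TSA and 415 counts (7.46 FPKM) untreated and was not called (ratio 1.20, 1.03 to 1.40). *Pparg*, for the adipocyte regulator PPAR gamma, had 109 counts (1.81 FPKM) with TSA and 75 counts (1.23 FPKM) untreated, and was 2.65-fold (1.96 to 3.61) higher with TMM and at 1.47 with total counts. PPAR alpha made up 84.9% of the summed PPAR level with TSA and 43.0% without, when PPAR delta was the largest part at 48.9%. The ratio of *Ppara* to *Ppard* was 8.73 times as high with TSA (7.39 to 10.3).

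**Figure D4:**
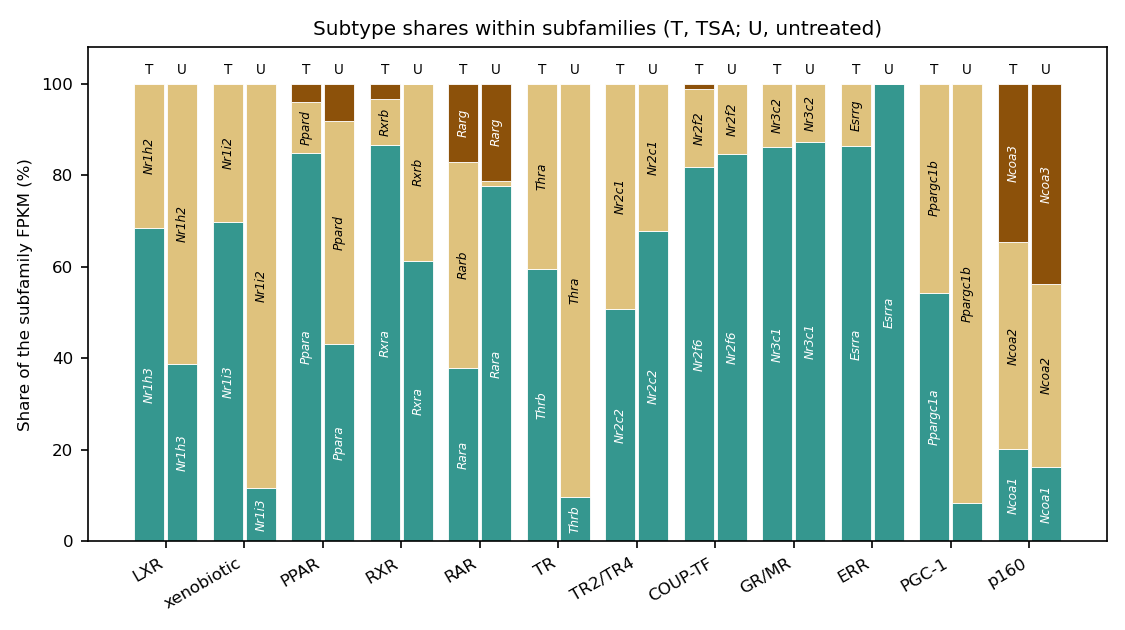
Share of each subtype in the summed FPKM of its subfamily (percent), with the TSA library (T) left of the untreated library (U), 1 library each. *Nr1h3*, *Nr1i3*, *Ppara*, *Thrb* and *Ppargc1a* take more than 50% of their subfamily with TSA and less than 50% without, whereas the shares within GR/MR and COUP-TF are close.

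Retinoid receptors were split, with 3 of 6 called higher and none lower by TMM. Total counts called 2 of them higher and 2 lower. Higher calls were 50% and 33.3%, against 26.0% (TMM) and 16.0% (total counts) of all genes tested. Lower calls were 0% and 33.3%, against 27.4% and 48.7%. *Rxra* had 8443 counts with TSA and 4376 untreated and was 3.52-fold (3.39 to 3.65) higher, or at 1.95 with total counts. *Rxrb*, for RXR beta, had 494 counts (10.4 FPKM) with TSA and 1376 counts (28.8 FPKM) untreated, a ratio of 0.655 (0.590 to 0.727) that passed the size rule as lower with total counts alone. *Rxrg*, for RXR gamma, had 139 counts (3.44 FPKM) with TSA and 3 counts (0.0735 FPKM) untreated, a ratio of 84.6 (28.3 to 415). RXR alpha took 86.5% of the summed RXR level with TSA and 61.3% without, and RXR beta 10.1% and 38.6%. The ratio of *Rxra* to *Rxrb* was 5.37 times as high with TSA (4.81 to 6.01).

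The summed level of the retinoic acid receptors was 9.45 FPKM with TSA and 9.65 FPKM untreated. FPKM are per total count, and TMM scaling would raise the TSA sum 1.80-fold relative to the untreated one. The makeup of the sum, which no scaling changes, differed. *Rarb*, for RAR beta, itself a classical retinoic acid target, had 275 counts (4.26 FPKM) with TSA and 8 counts (0.123 FPKM) untreated and was 62.7-fold (31.4 to 147) higher. *Rara*, for RAR alpha, had 280 counts (3.58 FPKM) with TSA and 591 counts (7.48 FPKM) untreated, at a ratio of 0.865 (0.747 to 0.999), and *Rarg*, for RAR gamma, had 98 and 126 counts in that order (ratio 1.42, 1.08 to 1.86). Neither was called with TMM. RAR beta made up 45.1% of the summed RAR level with TSA and 1.27% without. Of the exon bases of *Rarb*, 34.1% overlap *Top2b* on the opposite strand, which had 1098 counts with TSA and 1890 untreated and was not called. Stellate cells, which store retinoid, had 7 of 10 markers higher and 1 lower with TMM, and 6 and 3 with total counts. Their part in the *Rarb* value was not tested.

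RXR pairs with many of the receptors above, and the summed levels of both sides were compared after the values were seen. The 14 partner receptors of the LXR, FXR, PXR, CAR, PPAR, RAR, thyroid hormone and vitamin D groups summed to 319 FPKM with TSA and 90.8 FPKM untreated. The 3 RXR genes summed to 103 and 74.6 FPKM. There were thus 3.09 FPKM of partner transcript per FPKM of RXR transcript with TSA and 1.22 without. Transcript levels do not give protein levels.

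The thyroid hormone receptors exchanged places. *Thrb*, for TR beta, the main liver subtype, had 1101 counts (4.22 FPKM) with TSA and 241 counts (0.913 FPKM) untreated and was 8.34-fold (7.25 to 9.63) higher. *Thra*, for TR alpha, had 156 counts (2.87 FPKM) with TSA and 469 counts (8.52 FPKM) untreated, a ratio of 0.607 (0.503 to 0.729), and was called lower with total counts alone. TR beta made up 59.6% of the summed level with TSA and 9.68% without, and the ratio of *Thrb* to *Thra* was 13.7 times as high with TSA (10.9 to 17.4). *Thra* shares 5.70% of its exon bases with the antisense clock gene *Nr1d1*, which had 309 counts with TSA and 249 untreated and was 2.26-fold (1.91 to 2.69) higher. The clock receptors *Rora*, for the activator ROR alpha, and *Nr1d2*, for the repressor REV-ERB beta, were both higher. *Rora* had 1378 counts with TSA and 142 untreated and was 17.7-fold (14.9 to 21.2) higher, and *Nr1d2* had 1694 and 716 counts and was 4.32-fold (3.95 to 4.72) higher. The sources used here do not give the clock time at which either liver was taken. *Vdr*, for the vitamin D receptor, which hepatocytes hardly express, was the sole member called lower, on 2 counts with TSA and 21 untreated, a ratio of 0.174 (0.0198 to 0.711).

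Among steroid and estrogen-related receptors 4 of 5 were called higher with TMM and 2 with total counts. These are 80% and 40%, against 26.0% and 16.0% of all genes tested. *Esr1*, for estrogen receptor alpha, had 2165 counts (15.0 FPKM) with TSA and 30 counts (0.205 FPKM) untreated and was 132-fold (92.0 to 196) higher. *Esrrg*, for the estrogen-related receptor ERR gamma, had 223 counts (1.60 FPKM) with TSA and 1 count (0.00711 FPKM) untreated, a ratio of 407 (72.3 to 16147), the largest among the members tested. *Esrra*, for ERR alpha, a regulator of mitochondrial genes, had 444 counts (10.1 FPKM) with TSA and 641 counts (14.4 FPKM) untreated and was not called (ratio 1.26, 1.12 to 1.43). The glucocorticoid receptor gene *Nr3c1* and the mineralocorticoid receptor gene *Nr3c2* kept one proportion. *Nr3c1* had 2339 counts with TSA and 1451 untreated and was 2.94-fold (2.75 to 3.14) higher, and *Nr3c2* had 225 and 126 counts and was 3.26-fold (2.61 to 4.09) higher. With total counts they stood at 1.63 and 1.81 and were not called. Their ratio to each other was 0.903 times as high with TSA, and the interval of 0.713 to 1.14 includes 1.

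Orphan receptors, for which no physiological ligand was known at their discovery, were called higher in 2 of 7 cases with TMM (28.6%, near the 26.0% of all genes tested). Total counts gave 1 higher and 1 lower (14.3% each, against 16.0% and 48.7% of all genes tested). *Nr4a1*, for the immediate early receptor NUR77, had 749 counts (8.65 FPKM) with TSA and 76 counts (0.868 FPKM) untreated and was 18.0-fold (14.2 to 23.1) higher. *Nr5a2*, for LRH-1, a partner of SHP in bile acid control, had 1212 counts (13.9 FPKM) with TSA and 1039 counts (11.8 FPKM) untreated and was 2.13-fold (1.96 to 2.32) higher with TMM but at 1.18 with total counts. The members that were not called included *Nr2f6*, for the COUP-TF relative EAR2, which was the second most abundant member without treatment at 34.4 FPKM and stood at 15.4 FPKM with TSA, a ratio of 0.806 (0.752 to 0.864). *Nr2f6* shares 54.4% of its exon bases with *Ocel1* on the opposite strand, which was 2.68-fold (2.09 to 3.45) higher. *Nr2f2*, for COUP-TF2, which liver endothelial and stellate cells express, had 317 counts with TSA and 631 untreated (ratio 0.917, 0.799 to 1.05). Most markers of both cell types were called higher with TMM, and 1 stellate marker was lower. The part of these cell types in the *Nr2f2* value was not tested. *Nr2c1* and *Nr2c2*, for the testicular receptors TR2 and TR4, had ratios of 1.86 (1.58 to 2.21) and 0.912 (0.817 to 1.02), and *Nr6a1*, for the germ cell nuclear factor GCNF, 1.87 (1.58 to 2.23). *Nr2c2* shares 30.7% of its exon bases with *Mrps25* on the opposite strand, which was 3.14-fold lower.

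Of the 7 coregulators 2 were called higher and none lower with TMM, while total counts called 1 in each direction. The share called higher with TMM is near the 26.0% of all genes tested. With total counts 16.0% of all genes tested were higher and 48.7% lower. *Ppargc1a*, for PGC-1 alpha, the fasting-induced coactivator of gluconeogenesis and mitochondrial genes, had 214 counts (1.06 FPKM) with TSA and 32 counts (0.156 FPKM) untreated and was 12.2-fold (8.39 to 18.3) higher. Its relative *Ppargc1b*, for PGC-1 beta, had 174 counts (0.887 FPKM) with TSA and 339 counts (1.71 FPKM) untreated and was not called (ratio 0.937, 0.776 to 1.13). The ratio of *Ppargc1a* to *Ppargc1b* was 13.0 times as high with TSA (8.50 to 20.3) under any scaling. Their summed level was 1.94 FPKM with TSA and 1.87 FPKM untreated, and TMM would likewise raise the TSA sum 1.80-fold relative to the untreated one. The p160 coactivators *Ncoa1*, *Ncoa2* and *Ncoa3*, which bring histone acetyltransferases to receptors, were not called, at ratios of 1.499 (1.32 to 1.698), 1.38 (1.28 to 1.48) and 0.959 (0.877 to 1.05). With total counts all 3 ratios lay under 1. *Ncor1*, for the corepressor that carries the deacetylase HDAC3, had 2344 counts (10.8 FPKM) with TSA and 5117 counts (23.3 FPKM) untreated, a ratio of 0.836 (0.796 to 0.878). *Nrip1*, for the corepressor RIP140, had 647 counts with TSA and 507 untreated and was 2.33-fold (2.07 to 2.62) higher with TMM and at 1.29 with total counts.

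Receptors and coregulators outside the 41 were taken from lists written from textbook knowledge. These lists were chosen with earlier results of these data known, so their shares are descriptive. Of 15 other receptors 8 could be tested, of which TMM called 6 higher and 1 lower. With total counts these numbers were 3 and 1. The shares were 75% and 12.5% with TMM, and 37.5% and 12.5% with total counts. Among all genes tested they were 26.0% and 27.4% with TMM, and 16.0% and 48.7% with total counts. *Nr1h5*, for FXR beta, a sterol receptor that is a pseudogene in humans, went the other way to its relative *Nr1h4*, with 44 counts with TSA and 1759 untreated, 21.9-fold (16.2 to 30.3) lower. *Hnf4a*, for the hepatocyte factor HNF4 alpha, was 2.46-fold (2.39 to 2.52) higher (1.36 with total counts). Of 20 other coregulators 1 was higher and 6 lower with TMM (5% and 30%), and 1 and 13 with total counts (5% and 65%). The share called lower with TMM is near the 27.4% of all genes tested. The median log2 ratio of these coregulators was -0.52 with TMM. *Pprc1*, for a PGC-1 relative that is induced in growing cells, was 9.28-fold (8.16 to 10.6) lower, and *Prmt1*, for an arginine methyltransferase, 10.2-fold (8.98 to 11.5) lower.

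Known target genes of the receptors were counted list by list. The target lists too were chosen with earlier results of these data known, so their shares are descriptive. Among all genes tested, 26.0% were higher and 27.4% lower with TMM, and 16.0% and 48.7% with total counts. Many of them are also genes of the mature hepatocyte, whose markers were higher in the same library, so the counts do not measure receptor activity, and lists share members. Of 18 CAR and PXR targets 17 were higher and none lower with either scaling (median log2 ratio 4.86, against -0.11 over all genes). *Cyp2b10*, the classical CAR target, had 1220 counts with TSA and 1 untreated, a ratio of 2227 (399 to 88019), *Cyp2c29* was 581-fold (471 to 727) higher and *Cyp3a11*, the classical PXR target, 128-fold (119 to 139) higher. Reads of the Cyp2b, Cyp2c and Cyp3a families may be split between close copies. Of 7 FXR targets tested 5 were higher and none lower (median 4.80; 5 and 1 with total counts), among them *Abcb11*, for the bile salt export pump, at 29.9-fold (26.8 to 33.4), *Baat* at 103-fold (82.3 to 130) and *Slc27a5* at 252-fold (211 to 303), both for enzymes of bile acid conjugation. *Cyp7a1*, for the first enzyme of bile acid synthesis, which SHP represses and LXR induces in mice, was 223-fold (174 to 291) higher in the library in which *Nr0b2* was higher too.

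Of 19 PPAR alpha targets 16 were higher and none lower (median 3.34), and 14 and 1 with total counts. *Cyp4a10*, for a fatty acid hydroxylase, was 80.4-fold (64.7 to 101) higher. *Pdk4*, whose product restrains glucose oxidation, was 1307-fold (816 to 2244) higher. LXR targets were mixed, with 6 of 11 higher and 2 lower (median 1.39). Total counts gave 4 and 3 (median 0.54). The shares were 54.5% and 18.2% with TMM, against 26.0% and 27.4% of all genes. With total counts they were 36.4% and 27.3%, against 16.0% and 48.7%. *Abcg5*, for a sterol exporter of the bile canaliculus, was 275-fold (166 to 492) higher, *Scd1* 22.1-fold (21.5 to 22.8) and *Srebf1*, for the lipogenic factor SREBP1, 2.92-fold (2.83 to 3.01), or 1.62 with total counts. The genes called lower were chosen for naming after the values were seen: *Abcg1*, with 158 counts with TSA and 1330 untreated, and *Lpl*, with 146 and 1355. Both are LXR targets best known from macrophages and other cells outside the hepatocyte. Whether such cells had a part in these values was not tested.

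Retinoic acid targets were split, with 3 of 6 tested called higher and 2 lower (median 0.66), or 3 and 3 with total counts. Higher calls were 50% with either scaling, against 26.0% (TMM) and 16.0% (total counts) of all genes. Lower calls were 33.3% and 50%, near the 27.4% and 48.7% of all genes. *Cyp26a1* and *Cyp26b1*, for enzymes that break down retinoic acid, had 692 and 618 counts with TSA and 3 and 4 untreated, ratios of 421 (143 to 2046) and 282 (109.6 to 1038). *Dhrs3*, for a retinal reductase, was 3.81-fold (3.53 to 4.11) higher, while *Tgm2* was at 0.657 (0.630 to 0.684). *Crabp2*, for an intracellular retinoid-binding protein, likewise chosen after the values were seen, was called lower, with 3 counts with TSA and 234 untreated. Of 6 thyroid hormone targets 4 were higher and none lower (median 3.30; 3 and 0 with total counts), with *Dio1*, for the deiodinase that activates thyroid hormone, at 513-fold (325 to 867) and *Thrsp* at 357-fold (296 to 434). Of 11 glucocorticoid receptor targets 9 were higher and none lower (median 2.86; 7 and 1 with total counts), with *Tat* at 1129-fold (928 to 1387) and *Pck1* at 579-fold (509 to 662).

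**Figure D5:**
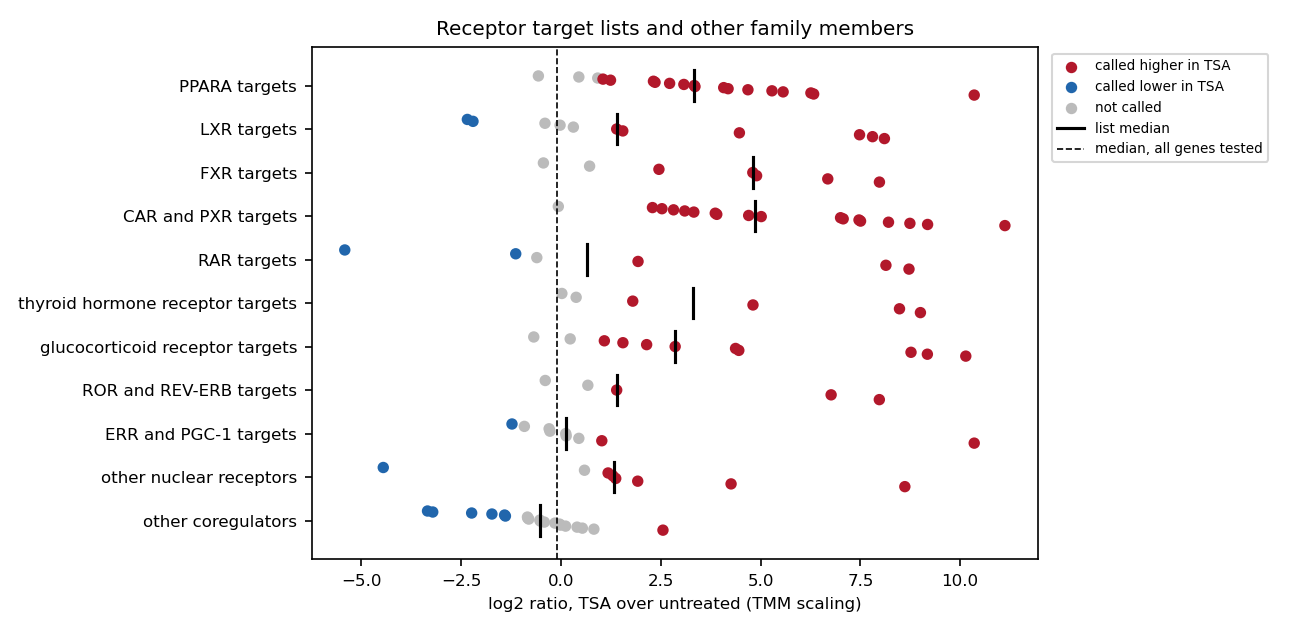
Log2 ratio of TSA over untreated (TMM scaling) for the tested genes of each receptor target list and of the other receptors and coregulators, coloured by call, with the list median (bar) and the median of all genes tested (dashed, -0.11). CAR and PXR targets have the highest median (4.86), and the median of other coregulators (-0.52) lies below that of all genes.

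Targets of the clock receptors and of the energy regulators ERR and PGC-1 were counted last. Of 5 ROR and REV-ERB targets tested 3 were higher and none lower (median 1.39; 2 and 1 with total counts). *Cyp7b1*, for an oxysterol hydroxylase that ROR alpha induces, was 252-fold (152 to 450.2) higher. *Elovl3* had 179 counts with TSA and 0 untreated. With a floor of 3 counts in place of the untreated 0, its ratio was 108.9 (60.3 with total counts). Its counting interval with TMM starts at 87.7 and has no upper limit. *Nfil3* was not called (ratio 1.59, 1.43 to 1.77). Among 9 ERR and PGC-1 targets 2 were higher and 1 lower with TMM (median 0.12), shares of 22.2% and 11.1% against 26.0% and 27.4% of all genes. With total counts they were 1 and 4, or 11.1% and 44.4% against 16.0% and 48.7%. *Atp5b*, for a subunit of ATP synthase, was at 0.825 (0.811 to 0.838) and *Acadm* at 1.36 (1.32 to 1.41), and *Idh3a*, for a citric acid cycle subunit, was 2.34-fold (2.17 to 2.53) lower. *Pdk4*, which stands in this list too, was the main exception.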

How the data were processed

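The analysis covers 1 TSA and 1 untreated library of polyA RNA from mouse liver, grouped by the treatment label. Per the submitters' processing notes, the authors used DESeq, Bowtie2, HISAT2 and Trimmomatic. The sources used here do not say for which step, nor give the genome build, annotation, counting program or use of strand. The deposited counts are whole reads per gene symbol. The FPKM deposited by the authors equal those counts per gene length and library total, since for each of 14271 genes seen in both libraries the implied length was a whole number and the same, to within 0.1 base.

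TMM factors from edgeR 4.0.16 in R 4.3.3 were 0.744 (TSA) and 1.34 (untreated). Ratios have exact conditional binomial (Clopper-Pearson) intervals at 95%, and subtype ratios exact conditional odds ratio intervals. They cover counting error only, since reads are not independent molecules and animals were not replicated. Calls used all 13027 genes with at least 20 summed counts. The rule was tried on simulated counts that held counting error alone, with the library scaling known. That does not cover variation between animals or the choice of scaling. Alternatives were total counts, DESeq2 1.42.0 size factors, upper quartiles, other count minimums and thresholds, and FPKM with 0.1 added. Named genes were all members and, in each list, the 2 most abundant genes and the 2 farthest from a ratio of 1, given a sum of 50 counts. Exceptions are the genes named for an overlapping exon and those marked as named after their values were seen, and some marker genes that the rule selects are given only in their list's sum. Some list genes picked by this rule are not reported here. Members and lists were chosen with earlier results of these data known. Promoters are from RefSeq (GRCm38.p6) and exon overlaps from GENCODE M21. Python 3.11.15, scipy 1.17.1 and matplotlib 3.10.9 were used.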

Additional observations from a re-analysis of the deposited data

How the results depend on the processing

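No paired analysis was possible because each group has 1 library, and for the same reason no replicate could be left out. DESeq2 size factors and upper quartile scaling gave the same counts of members as TMM, 21 higher and 1 lower. With total counts 6 members were lower and the median log2 ratio was 0.37, and with FPKM plus 0.1 they were 6 and 0.35. A 1.5-fold threshold gave 3 lower members. A minimum of 100 summed counts left 0 lower, since *Vdr* was then not tested, and a gap of 1.47 between the medians of members and all genes. With no minimum the median over all 41 members was 1.41. The count of higher members lay between 15 and 23 over these alternatives, and no ratio of a called member changed its direction in any. Of 176 recomputed counts of the receptor target and family lists, 24 moved by over 1.5 times, or to or from 0. Of these 24, 16 came with total counts or FPKM, which TMM exceeds by 0.85 on the log2 scale. Ratios resting on 1 to 8 untreated counts (*Esrrg*, *Rxrg*, *Rarb*) are limited by depth.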
